A study of Homo sapiens with 4 samples.

Results

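The genes described here encode products that the mammary epithelium secretes or presents at its luminal surface: *MUC1*, *PIP*, *AGR2*, *AGR3*, *AZGP1*, *SCGB2A2*, *SCGB1D2*, *SCGB2A1*, *LALBA* and *TFF3*. They were taken by gene symbol from a list drawn up with earlier results of these data known, and no measured value entered the rule. All 10 were present among the 23287 gene symbols of the RNA-seq files. T47D cells come from a human breast carcinoma of luminal type and express the progesterone receptor (PR). One RNA-seq library came from cells given 10 nM R5020, a synthetic progestin, for 3 h, and 1 from cells given the vehicle, ethanol (EtOH), for 3 h. The other library was a PR ChIP-seq of cells given 10 nM R5020 for 1 h. All cells were held in charcoal-stripped serum before treatment, for longer before ChIP than before RNA isolation, and no genetic change is named for any group. There was 1 library per condition, so the differences below compare 2 libraries, have no error between cultures and carry no p-value.

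The secretory cells of the breast make milk proteins, mucins and small defence proteins under the control of prolactin, progesterone, glucocorticoids and oestrogen. *LALBA* encodes alpha-lactalbumin, the regulatory subunit of lactose synthase and a marker of lactation. Prolactin-inducible protein (*PIP*), zinc-alpha-2-glycoprotein (*AZGP1*) and the secretoglobins, which include mammaglobin A (*SCGB2A2*), lipophilin B (*SCGB1D2*) and mammaglobin B (*SCGB2A1*), are secreted proteins used as markers of breast tissue. *AGR2* and *AGR3* encode protein disulfide isomerases of the endoplasmic reticulum, *TFF3* a trefoil peptide that is secreted with mucins, and *MUC1* a transmembrane mucin. The PR acts as a ligand-activated transcription factor that binds DNA as a dimer, at inverted repeats of elements such as AGAACA.

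The cells had the markers of luminal epithelium. In EtOH the FPKM (the number of fragments divided by transcript length and library size, as estimated by the authors) was 62.2 for *EPCAM*, 102 for *CDH1* and 608 for *KRT19*. *KRT8* and *KRT18* were listed at 0 in EtOH because their estimation had failed there, and stood at 285 and 174 in R5020. Of the basal, fibroblast, endothelial, immune and adipocyte markers, the highest value was that of *COL1A1*, 5.12 in EtOH and 3.31 in R5020. The summed FPKM of the 4 immune markers was 0.701 in EtOH and 0.576 in R5020, and that of the 3 endothelial markers was 0.229 and 0.325. The part of such RNA in the results was not tested. Estimation had failed for 9 transcripts in EtOH and 13 in R5020, none of them a transcript of the 10 genes. Coverage times transcript length over a read length of 50 nt gave totals of 35151493 read equivalents in EtOH and 36203604 in R5020. Both lie below the numbers of unique paired-end reads in the paper, which were higher for EtOH than for R5020. The cause of this difference was not tested.

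The sequences that carry the binding result are those of the PR binding sites near these genes, since only *MUC1*, *LALBA* and *TFF3* had a site within 50 kb. Each is shown as the 300 bases around the midpoint of the site, on the plus strand of hg19 (GRCh37), with AGAACA and its reverse complement TGTTCT in capitals. The *MUC1* window is chr1:155162651-155162950, the *LALBA* window chr12:48987699-48987998 and the *TFF3* window chr21:43706012-43706311.

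MUC1 site: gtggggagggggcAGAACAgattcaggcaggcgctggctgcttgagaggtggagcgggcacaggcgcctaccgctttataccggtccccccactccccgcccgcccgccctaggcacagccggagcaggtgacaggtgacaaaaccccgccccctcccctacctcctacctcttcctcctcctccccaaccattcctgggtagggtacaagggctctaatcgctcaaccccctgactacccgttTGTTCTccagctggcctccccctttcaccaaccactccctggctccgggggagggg

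LALBA site: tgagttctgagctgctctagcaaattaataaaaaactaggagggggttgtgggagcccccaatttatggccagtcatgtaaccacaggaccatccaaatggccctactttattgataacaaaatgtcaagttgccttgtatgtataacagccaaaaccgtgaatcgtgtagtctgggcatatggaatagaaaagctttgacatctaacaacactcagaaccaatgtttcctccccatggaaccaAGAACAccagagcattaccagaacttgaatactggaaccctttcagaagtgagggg

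TFF3 site: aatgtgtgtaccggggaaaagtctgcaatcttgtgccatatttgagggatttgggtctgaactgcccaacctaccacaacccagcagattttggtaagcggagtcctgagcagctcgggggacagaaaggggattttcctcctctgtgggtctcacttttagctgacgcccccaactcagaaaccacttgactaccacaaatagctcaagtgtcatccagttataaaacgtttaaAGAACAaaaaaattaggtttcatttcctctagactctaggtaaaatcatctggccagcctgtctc

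The *MUC1* window held the element 2 times and the *LALBA* and *TFF3* windows 1 time each. None held the inverted repeat GNACANNNTGTNC. Across all sites, 17.7% of 11178 windows of this length held AGAACA on either strand, against 19.1% of 22338 windows lying 5 kb to either side. The inverted repeat, searched in the same way, was in 1.89% of the site windows and in 0.466% of the flanking windows. The element alone was thus no more frequent in the site windows than in their flanks, while the inverted repeat was. These 3 windows lacked the inverted repeat, as did nearly all site windows, so its absence does not set them apart.

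Expression of the 10 genes ranged from values of 0 to the highest ranks of the libraries. Ranked among the 23287 gene symbols in EtOH, *MUC1* stood at 20, *PIP* at 45 and *AGR2* at 88. *AGR3* and *AZGP1* were at ranks 2786 and 2819, *TFF3* at 7983 and *SCGB2A1* at 9830. *SCGB2A2* was barely detected, and *SCGB1D2* and *LALBA* were listed at 0 in both libraries. The FPKM values of the 10 genes summed to 1049 in EtOH and 907 in R5020, most of it from *MUC1*. With 1 library per condition no spread is available by which neighbours in this order could be told apart. In such bulk samples, fewer cells that express a gene and less of its RNA per cell cannot be told apart.

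**Figure D1:**
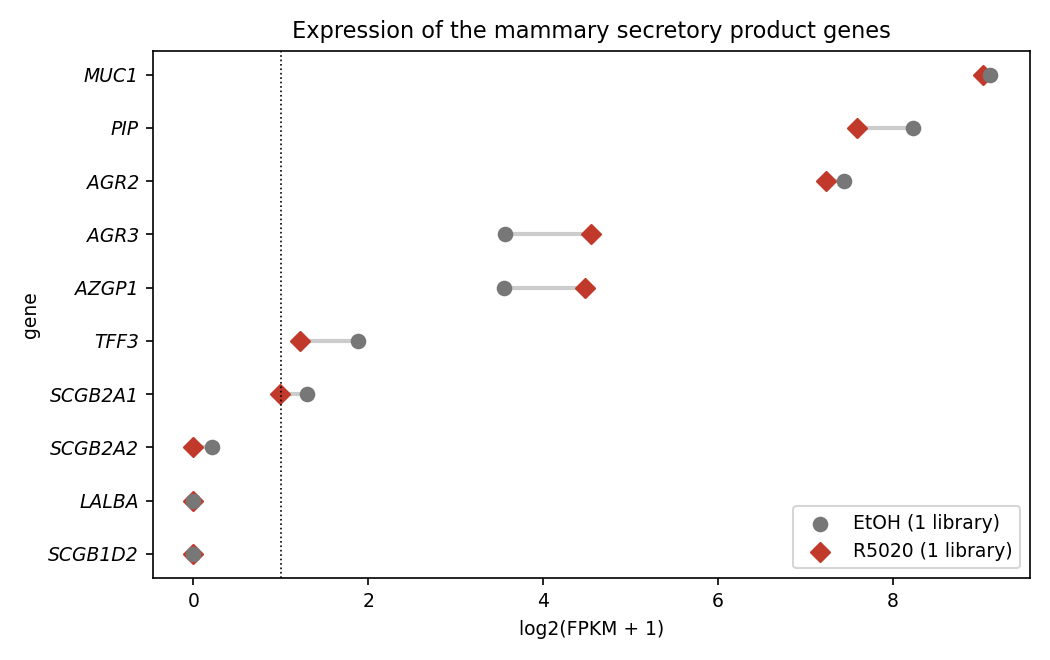
FPKM of the 10 genes on the log2(FPKM + 1) scale (x axis), with 1 circle for the EtOH library and 1 diamond for the R5020 library per gene, ordered by the EtOH value; the dotted line marks an FPKM of 1. *AGR3* and *AZGP1* lie to the right in R5020, *PIP* and *TFF3* to the left, and *LALBA* and *SCGB1D2* lie at 0 in both.

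A gene was retained when its FPKM was at least 1 in at least 1 library, which 11018 genes and 7 of the 10 genes met. Values were set against each other on the log2 scale after adding 1 to both, R5020 over EtOH, which makes differences between low values look smaller than they are. The threshold was 1.5-fold on this scale, a log2 change of 0.585. *AGR3* and *AZGP1* were higher in R5020 by this threshold, and *PIP* and *TFF3* were lower. Of the 7 retained genes, 2 were thus higher, 2 lower and 3 neither. The share past the upper threshold was 7.67% among all 11018 retained genes, and the share past the lower one was 4.14%. The median log2 change was −0.21 for the 7 genes and 0.01 for all retained genes. *SCGB2A1* was retained through its EtOH value alone, and with 7 genes the counts describe these genes only. No gene of the 10 reached 2-fold in either direction on this scale.

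**Figure D2:**
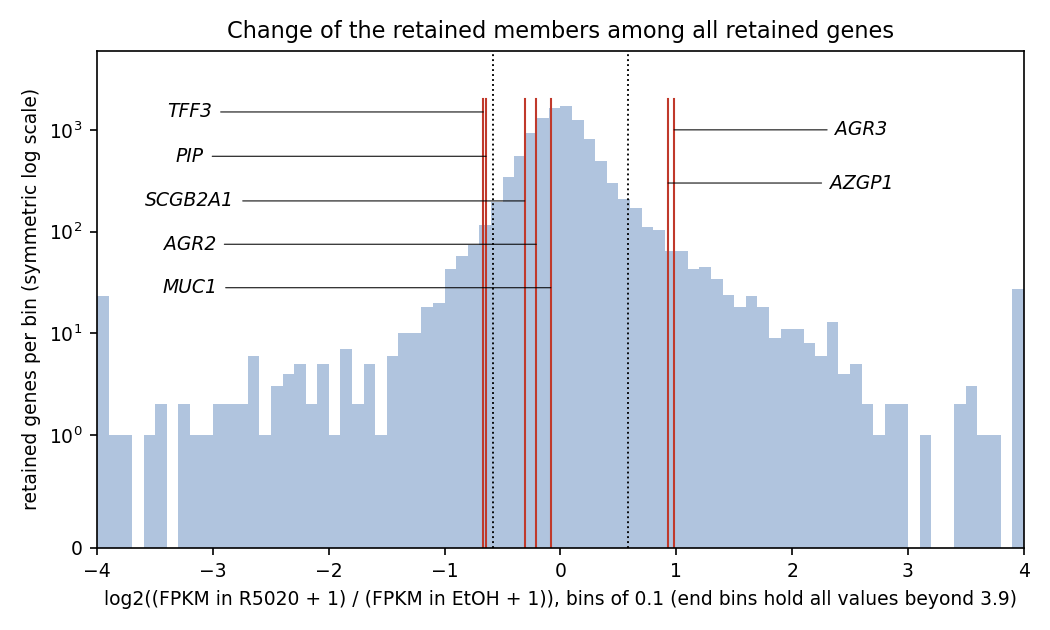
Log2 change of the 11018 retained genes (bars, number of genes per bin of 0.1 on a symmetric log scale) with the 7 retained genes of the 10 as red lines; the dotted lines mark 1.5-fold. *AGR3* and *AZGP1* lie beyond the upper line and *PIP* and *TFF3* just beyond the lower one.

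The FPKM of *AGR3* was 10.8 in EtOH and 22.3 in R5020 (log2 change 0.98). This placed it at rank 388 of the retained genes from the highest change down. The R5020 value was 2.06 times the EtOH value without a pseudocount. About 768 read equivalents in EtOH and 1531 in R5020 lay behind these values. The deposited intervals of the FPKM, 11.6 to 14.9 in EtOH and 28.4 to 33.1 in R5020, did not overlap, but in both libraries the FPKM lay below its own interval. Here and below, such intervals describe the estimate within 1 library and not the spread between cultures. How often they failed to overlap among all genes was not counted, so a lack of overlap carries no weight by itself.

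*AGR2*, the close relative of *AGR3*, showed no such difference. It stood at 173 in EtOH and at 149.6 in R5020, a log2 change of −0.21, from about 16052 and 13416 read equivalents. Its FPKM too lay below its own interval in both libraries, and with the interval midpoints the log2 change was −0.09. In EtOH its FPKM was thus far above that of *AGR3*, and the gap was smaller in R5020. The genes lie 54.3 kb apart on chromosome 7, *AGR2* at 16832264 to 16844738 and *AGR3* at 16899030 to 16921613 (hg19). Their transcripts shared none of the 2841 stretches of 50 bases found in *AGR2*, so a read of that length without mismatches could not match both. The other genes within 200 kb of *AGR3*, *TSPAN13* and *BZW2*, stood at 220 and 18.2 in EtOH and at 227 and 19 in R5020. They had log2 changes of 0.04 and 0.05. No PR binding site lay near either gene. The nearest was 417 kb upstream of *AGR3* and 494 kb upstream of *AGR2*, in an exon of *AHR*, with a score of 86.6 (the −log10 of the p-value times 10, where the lowest of the 11181 sites has 50 and the median is 74.5).

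*AZGP1* on chromosome 7 (99564350 to 99573735, hg19) stood at 10.7 in EtOH and 21.3 in R5020, a log2 change of 0.93. The R5020 value was 1.99 times the EtOH value without a pseudocount, from about 1261 and 2340 read equivalents. Its deposited intervals, 12.4 to 14.9 and 25.8 to 29.1, did not overlap, and both FPKM values lay below them. The nearest PR binding site was 137 kb upstream, in an exon of *TAF6*, with a score of 63.4.

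The pseudogene *AZGP1P1*, named here after its values were seen, lies 4.65 kb from *AZGP1*. Its FPKM was 0.362 in EtOH and 5.99 in R5020 (log2 change 2.36). Of the 2673 stretches of 50 bases in the transcripts of *AZGP1*, 6.62% also occurred in those of *AZGP1P1*, and their best alignment was 90.7% identical over 1178 bases. The authors discarded reads with several positions, and the split of reads between these genes is uncertain. Both had the higher value in R5020.

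The promoters of *AGR3* and *AZGP1* are shown because these were the genes with the higher values in R5020. Both are RefSeq sequences of the table for GRCh38.p14, given as 300 bases around the start on the strand of the gene, of which the last 50 follow the start, and each matched hg19 at 1 place. The *AGR3* promoter lies at chr7:16921558-16921857 and the *AZGP1* promoter at chr7:99573605-99573904, both on the minus strand.

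AGR3 promoter: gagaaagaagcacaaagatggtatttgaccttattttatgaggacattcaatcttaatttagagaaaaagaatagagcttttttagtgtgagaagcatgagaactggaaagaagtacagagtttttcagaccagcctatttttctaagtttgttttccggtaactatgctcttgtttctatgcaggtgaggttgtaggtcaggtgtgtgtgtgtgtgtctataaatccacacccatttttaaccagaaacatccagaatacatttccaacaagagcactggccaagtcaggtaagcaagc

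AZGP1 promoter: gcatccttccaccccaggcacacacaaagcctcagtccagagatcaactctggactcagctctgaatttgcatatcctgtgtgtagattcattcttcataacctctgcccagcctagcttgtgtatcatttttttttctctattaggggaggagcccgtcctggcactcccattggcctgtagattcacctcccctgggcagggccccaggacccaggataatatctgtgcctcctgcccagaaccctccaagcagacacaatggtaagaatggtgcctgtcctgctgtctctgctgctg

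Neither holds AGAACA or TGTTCT, which occur in 14.8% of the 35116 promoters of the table, and neither overlaps a PR binding site. These letters alone say nothing of the receptor elsewhere. A local alignment of the pair covered 34 bases with 73.5% identity.

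*PIP* stood lower with the hormone, at 299 in EtOH and 192 in R5020. The log2 change was −0.64, which is 1.56-fold lower. The change lay at the percentile 3.46 of the retained genes and close to the threshold. With about 16435 read equivalents in EtOH and 10244 in R5020, *PIP* had far more reads behind it than the other genes past 1.5-fold. Its deposited intervals, 223 to 240 and 143 to 156, did not overlap, and here the FPKM lay above its interval in both libraries. *PIP* also lay farthest of the 10 from any PR binding site. The nearest was 1457 kb away, and 95.2% of all gene symbols had a nearer one. Of its neighbours within 200 kb, 3 were retained, *GSTK1*, *TMEM139* and *CASP2*, and none reached 1.5-fold. The *PIP* promoter, at chr7:142828920-142829219 on the plus strand (hg19 match of the RefSeq sequence), is shown because *PIP* had the highest FPKM of the genes past the threshold, and holds the element 1 time.

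PIP promoter: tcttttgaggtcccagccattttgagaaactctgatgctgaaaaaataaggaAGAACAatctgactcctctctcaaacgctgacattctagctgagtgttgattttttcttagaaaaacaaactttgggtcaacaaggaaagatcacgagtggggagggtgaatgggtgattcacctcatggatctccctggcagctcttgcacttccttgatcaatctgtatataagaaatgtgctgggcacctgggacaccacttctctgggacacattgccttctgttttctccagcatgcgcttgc

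*TFF3* on chromosome 21 (43731777 to 43735706, hg19) stood at 2.69 in EtOH and 1.33 in R5020, a log2 change of −0.67. Without a pseudocount the EtOH value was 2.03 times the R5020 value. It rested on about 256 and 129 read equivalents. The deposited intervals, 1.10066 to 2.03 in EtOH and 0.48 to 1.10109 in R5020, met at their ends, and both FPKM values lay above them. With the midpoints of these intervals in place of the FPKM, tried after the data were seen, the log2 change was −0.52, short of 1.5-fold. At 1.5-fold, *TFF3* was the only one of the 4 genes to lose its call under an alternative that was run.

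The trefoil neighbours of *TFF3* were low too. *TFF1*, an oestrogen-responsive trefoil gene 46.7 kb away, stood at 1.88 in EtOH and 0.442 in R5020, a log2 change of −0.998, and *TFF2* was listed at 0 in both. All 4 retained neighbours of *TFF3* within 200 kb had a lower value in R5020, 2 of them, *TFF1* and *SLC37A1* (5.42 and 3.01), by at least 1.5-fold. Among all retained genes, 4.14% were lower by at least 1.5-fold. *TFF1* was retained through its EtOH value alone, and the counts describe these 4 genes only. The PR binding site closest to *TFF3* lay 25.4 kb downstream of it at chr21:43705983-43706340, inside *ABCG1*, with its midpoint in an exon of a retained-intron transcript and in an intron of the protein-coding ones, and with a score of 73.5, near the median. *ABCG1* was the only other gene within 50 kb of this site, and it stood at 2.63 and 2.18, a log2 change of −0.19.

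*MUC1* had the highest FPKM of the 10 genes, 551 in EtOH and 519.6 in R5020, a log2 change of −0.08. The deposited files give it 20 transcripts that share 1 start, of which 2 carried the whole estimate. NM_001204285 had 455 in EtOH and 439.7 in R5020, and NM_001204286 had 95.2 and 79.9. The first transcript thus held 82.7% of the gene in EtOH and 84.6% in R5020. The intervals of the first transcript overlapped between the libraries and those of the second did not. The log2 change of the second was −0.25. The 2 transcripts are 1811 and 1838 nt long, so the split between them rests on the estimation and was not tested.

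*MUC1* was also the only one of the 10 genes that a PR binding site overlapped, which held for 17.9% of all gene symbols. The site, chr1:155162549-155163053, covers the start of the gene, with its midpoint 95 bases upstream of the start, where no protein-coding gene is annotated. Its score of 59.7 was low, with a lower score for 17.8% of the sites. The 300 bases printed above are also 1 of the promoters of *MUC1* in the RefSeq table, an annotation with more than 1 start for this gene, read on the opposite strand, so the whole promoter lies inside the site. Of the 7 retained genes, the one with a PR binding site over its start had the smallest difference. This is 1 gene, and a relation between the site and the difference was not tested. The region around *MUC1* was rich in other sites. The highest-scoring one, 168 kb downstream in an exon of *ZBTB7B* at chr1:154989558-154990166, had a score of 877 and ranked 12 among all 11181 sites.

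Among the genes that had the *MUC1* site within 50 kb, *DPM3*, which encodes a stabilising subunit of dolichol-phosphate mannose synthase, stood at 16.8 in EtOH and 8.63 in R5020, a log2 change of −0.89, which is past 1.5-fold. *KRTCAP2* (68.1 and 52.4), *THBS3* (5.43 and 4.52), *MTX1* (4.25 and 3.39) and *TRIM46* (1.197 and 1.153) also had the lower value in R5020 and did not reach 1.5-fold. *MIR92B* was not retained.

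The secretoglobins were near the limit of detection. *SCGB2A1* stood at 1.47 in EtOH and 0.995 in R5020, a log2 change of −0.31, from about 74 and 46 read equivalents, and its deposited intervals overlapped. *SCGB2A2* stood at 0.158 in EtOH, about 8 read equivalents, and was listed at 0 in R5020, where no fold is given. *SCGB1D2* was listed at 0 in both libraries. They lie together on chromosome 11, *SCGB2A1* at 61976140 to 61981411, *SCGB1D2* at 62009724 to 62012280 and *SCGB2A2* at 62037630 to 62040628 (hg19), and share their nearest PR binding site. That site, at 62178032 to 62178447 in an intron of *SCGB1A1* with a score of 84.9, is 137 kb from *SCGB2A2* and 197 kb from *SCGB2A1*. Of the 6 other secretoglobins measured, 5 were listed at 0 in both libraries, and *SCGB3A1* had 0.707 and 0.447.

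The promoters of *SCGB2A1* and *SCGB2A2* are shown because the sequences are alike while only *SCGB2A1* was retained. Their transcripts, 74.9% identical in the best alignment, shared none of the 471 stretches of 50 bases in *SCGB2A1*. Over their last 186 bases the 2 promoters were 85.5% identical. They lie at chr11:61975895-61976194 and chr11:62037380-62037679 on the plus strand, and neither holds AGAACA or TGTTCT.

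SCGB2A1 promoter: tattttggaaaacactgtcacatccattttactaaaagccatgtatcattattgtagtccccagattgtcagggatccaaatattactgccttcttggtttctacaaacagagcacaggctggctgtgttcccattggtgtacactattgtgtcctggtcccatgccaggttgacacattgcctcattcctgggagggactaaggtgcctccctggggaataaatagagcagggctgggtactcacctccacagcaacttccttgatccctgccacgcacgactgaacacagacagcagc

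SCGB2A2 promoter: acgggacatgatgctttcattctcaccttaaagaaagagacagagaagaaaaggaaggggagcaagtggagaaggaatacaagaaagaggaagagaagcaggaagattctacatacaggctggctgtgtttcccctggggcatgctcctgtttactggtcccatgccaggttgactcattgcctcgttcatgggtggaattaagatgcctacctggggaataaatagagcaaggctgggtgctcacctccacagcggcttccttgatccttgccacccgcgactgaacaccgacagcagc

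*LALBA* (chromosome 12, 48961467 to 48963829, hg19) was listed at 0 in both libraries, as were 26.4% of all gene symbols. A value of 0 can also be a failed estimate in such files. *TMX2*, a widely expressed gene named here after its values were seen, was listed at 0 in both with a status of OK. The upper bound of the interval was 0 for *LALBA* and *SCGB1D2*. A PR binding site lay 23.8 kb upstream of *LALBA*, at chr12:48987639-48988059 outside protein-coding genes. Its score of 52.7 was near the lowest deposited, with a lower score for 3.84% of the sites.

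Taking the 10 genes as a group, 3 had a PR binding site within 50 kb, against 45.6% of all gene symbols and 52.7% of the retained genes. The nearest site lay farther than 100 kb away for 7 of the 10 genes, against 42.9% of all gene symbols, and farther than 200 kb for 3, *PIP*, *AGR2* and *AGR3*, against 30.9%. The median distance to the nearest site was 152 kb for the 10 genes and 65.6 kb for all gene symbols. Of the 4 genes past 1.5-fold, only *TFF3* had a site within 50 kb, whereas such a site was present for 61.4% of all genes past the upper threshold and for 61% of those past the lower one. Of the 3 retained genes within the thresholds only *MUC1* had one, against 51.5% of all such genes. None of the 3 sites had a score of 100, which 1824 sites reached. The secretoglobins share a locus, as do *AGR2* and *AGR3*, so the 10 distances are not independent of each other.

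**Figure D3:**
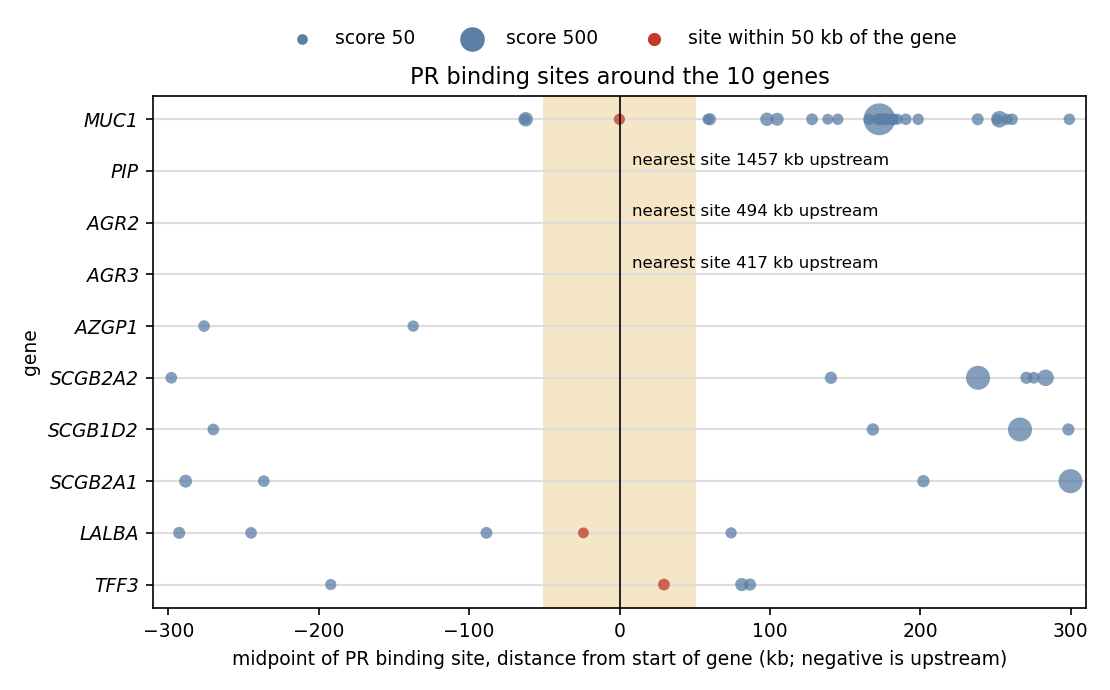
PR binding sites around the start of each of the 10 genes, by distance of the site's midpoint in kb along the direction of transcription; the area of a point grows with the score, red points are sites within 50 kb of the gene and the shaded band is 50 kb to either side of the start. Red points appear for *MUC1*, *LALBA* and *TFF3* only, and *PIP*, *AGR2* and *AGR3* have no site in the range drawn.

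Other milk and milk-fat globule genes were mostly at or near 0. Of 20 such genes, 8 were listed at 0 in both libraries, the caseins *CSN1S1*, *CSN2* and *CSN3* among them, and 3 were retained. *PLIN2*, a coat protein of lipid droplets, was the only one past 1.5-fold, at 2.69 in EtOH and 6.63 in R5020 (log2 change 1.05). *FOLR1*, the folate receptor that milk contains in soluble form, was at 12 and 10.9 (−0.12). Of 10 other trefoil and mucin genes found in the files, 3 were retained, of which only *TFF1* was past 1.5-fold. *MUC6*, a gel-forming mucin, had the highest value, 2.82 in EtOH and 1.90 in R5020, with a log2 change of −0.40.

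The protein disulfide isomerases, to whose family *AGR2* and *AGR3* belong, showed little difference. Of 16 genes, 13 were retained and none was past 1.5-fold, with a median log2 change of 0.08. Among all retained genes, 7.67% were past the upper threshold and 4.14% past the lower one. With 13 genes, finding none past it is near these shares. The highest were *P4HB*, at 170 in EtOH and 169 in R5020, and *PDIA3*, at 103 and 95.6. Of the retained genes of this family, *AGR2* and those on the list included, *AGR3* was thus the only one past 1.5-fold on the scale used.

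Among 17 regulators of mammary secretory differentiation, 16 were retained, of which 1 was past the upper threshold (7.67% of all retained genes) and 6 were past the lower one (4.14%). Their median log2 change was −0.40. *STAT5A*, which carries the prolactin signal to milk protein genes, was higher, from 0.183 in EtOH to 2.45 in R5020 (1.55). It was retained through its R5020 value alone, so the filter could keep it only as a gene with the higher value there. The prolactin receptor gene *PRLR* stood at 152 and 162 (0.10). The luminal lineage factor genes were lower, *FOXA1* with 64.3 in EtOH and 14.7 in R5020 (−2.05) and *GATA3* with 253 and 126 (−0.998). *SPDEF*, a factor of secretory epithelia, stood at 22.9 and 12.2 (−0.86), and *ID2*, an inhibitor of helix-loop-helix factors, at 8.06 and 3.42 (−1.04). The oestrogen receptor gene *ESR1* (17.2 and 10.9, −0.61) and the progesterone receptor gene *PGR* (23.7 and 15.3, −0.60) were just past the threshold. Of the 17 regulators, 14 had a PR binding site within 50 kb and 10 were overlapped by one, against 3 and 1 of the 10 secretory product genes and 45.6% and 17.9% of all gene symbols. The lists differ in gene length and expression, and the part of these in the counts was not tested.

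**Figure D4:**
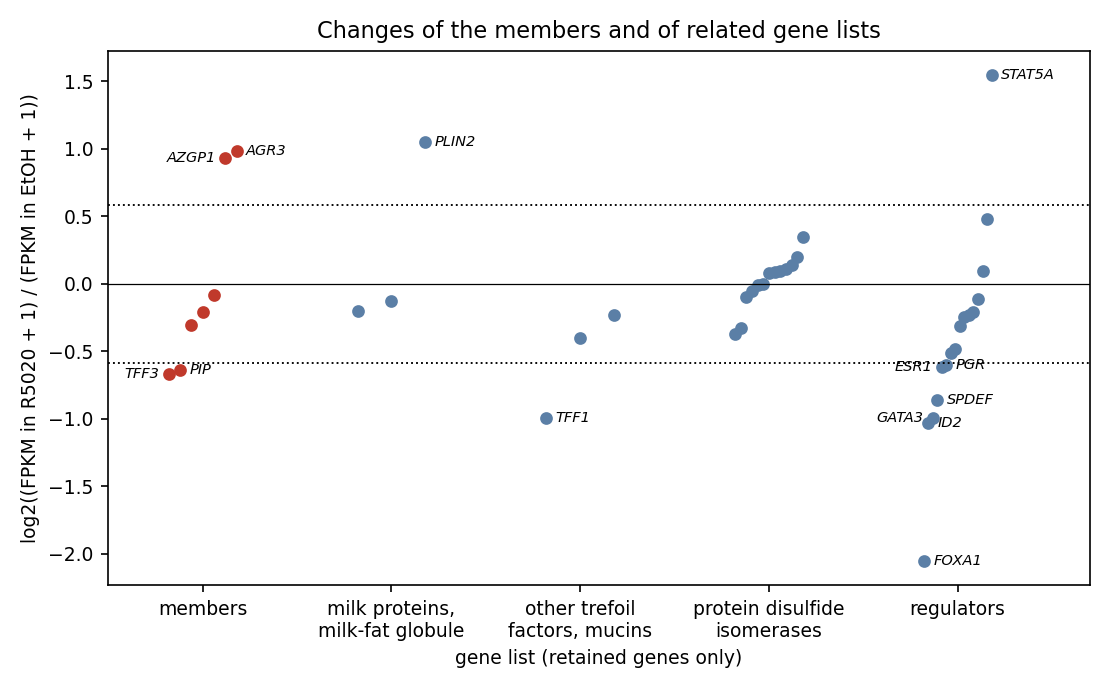
Log2 change of the retained genes of 5 lists, 1 point per gene, with the genes past 1.5-fold (dotted lines) named. The disulfide isomerases all lie between the dotted lines, and 6 regulators lie below them.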

How the data were processed

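The 2 RNA-seq libraries and the PR ChIP-seq library of T47D cells were analysed. The input DNA was not analysed here. Groups came from the sample titles, and doses and times from the study's methods. The FPKM and coverage signal values were deposited by the authors per RefSeq transcript, after alignment to hg19 with TopHat, removal of reads with several positions and estimation with Cufflinks. The deposited PR sites carry the MACS score of the authors (Bowtie 1.1.2, hg19, 1 library against input). Reads without molecular identifiers are not independent molecules.

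FPKM was summed over the transcripts of a gene symbol, 41138 transcripts in all, and 1 was added before taking log2. A gene had a site where the gap from any transcript to a site was at most 50 kb. Windows of 300 bases were read from GRCh37, and protein-coding annotation from GENCODE release 44 lifted to it, where an exon is one of any transcript. RefSeq promoters were in the table for 9 of the 10 genes (not for *TFF3*). No genes were named for a similar pattern, since 2 libraries give none. From each list, genes past 1.5-fold and the 2 with the highest FPKM are named. Neighbours that share no site are named where a count needs it, after their values were seen. Not every gene near the *MUC1* site is reported here. The genes and lists were chosen with earlier results of these data known. The procedure was tested on simulated data, with planted changes larger than those of the 10 genes. Changes near the threshold and values as low as those of *TFF3* were not simulated. Alternatives were another pseudocount, the highest transcript, rescaling, coverage, other filters, thresholds and distances, and higher-scoring sites. Python 3.11.15, pandas 2.3.3 and numpy 2.4.6 were used.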

Additional observations from a re-analysis of the deposited data

How the results depend on the processing

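With 1 library per condition no replicate could be left out. No paired analysis was possible because each condition has 1 library. Leaving out genes at 0 in both libraries and settings that cannot move a gene with 1 transcript, 38 of 40 recomputed changes kept their direction and their side of 1.5-fold, and none reversed. The exceptions were *TFF3* with interval midpoints (−0.52, chosen after seeing the data) and *SCGB2A2* with a pseudocount of 0.1 (−1.37). Rescaling used a factor of 1.008, and a pseudocount of 0.1 left *PIP* at −0.64. Several of the 40 changes could thus hardly move, and the count overstates how far they were tried. At 2-fold, with 1 added to the FPKM, 0 of the 10 genes were higher and 0 lower, against 378 and 144 of the retained genes. Without a pseudocount, *AGR3* (1.04) and *TFF3* (−1.02) passed 2-fold. *AGR3* also did so with a pseudocount of 0.1 (1.04) and with interval midpoints (1.15). With interval midpoints 1 of the 10 was lower at 1.5-fold. A pseudocount of 0.1 gave 787 lower retained genes, and FPKM of 1 or more in both libraries gave 299. Within 10 kb, 1 of the 10 and 6378 of all gene symbols had a site, and with scores of at least 100, 0 and 3305 had one within 50 kb. Fewer sites or a higher threshold give fewer calls by construction. Other causes were not tested. *SCGB2A1*, *SCGB2A2* and *TFF3* rested on the fewest reads of the genes above 0, and depth was not varied.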
